A study of Homo sapiens with 18 samples.

Results

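The smooth muscle contractile genes described here are *ACTA2*, *TAGLN*, *CALD1*, *CNN1*, *CNN3*, *TPM1*, *TPM2*, *MYL9*, *PPP1R14A* and *MYH10*, 10 of the 40266 gene symbols of the deposited table. They were chosen by symbol as a named gene set, with earlier results of these data known, among them the difference of *PPP1R14A* between the parental lines, so differences between the lines are given as a description without a test. All 10 were among the 16093 genes that reached 1 TPM (a transcript level scaled for transcript length and library total) in at least 3 libraries. RNA-seq was performed on 18 libraries, 3 for each of 6 groups of human pancreatic ductal adenocarcinoma (PDAC) cells. Panc1 is a cell line from a primary tumour and served as the mesenchymal-like model, and Panc89 is a cell line from a lymph node metastasis and served as the epithelial model. Each was sequenced as untreated parental cells, as Holoclone cells and as Paraclone cells, which were expanded after single-cell cloning and were selected for colony shape and for a cancer stem cell or a non-stem morphology. A clone group therefore descends from a cloned cell and does not represent all Holoclone or Paraclone cells of its line. The 3 libraries of a group came from different cell passages, so the p-values measure the spread between passages of the same culture.

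In contractile cells, myosin pulls on actin filaments after its regulatory light chain has been phosphorylated. *ACTA2* encodes smooth muscle alpha-actin, *TPM1* and *TPM2* encode tropomyosins that lie along the actin filament, and *CALD1*, *CNN1*, *CNN3* and *TAGLN* encode the actin-binding proteins caldesmon, calponin 1, calponin 3 and transgelin. *MYL9* encodes a regulatory light chain, *MYH10* the heavy chain of nonmuscle myosin IIB, and *PPP1R14A* encodes CPI-17, an inhibitor of the phosphatase that removes the phosphate from the light chain. Many of these genes are induced by serum response factor (SRF), which binds a DNA element called the CArG box together with cofactors of the myocardin family, and they are also expressed in fibroblasts and in carcinoma cells after epithelial-mesenchymal transition.

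Sequence upstream of the start of transcription is printed for the members with a CArG-like element there, since SRF and its cofactors were measured in the same libraries. RefSeq gives 14 promoter windows of 300 bases for 8 of the 10 genes on GRCh38.p14, and none was in the table for *TAGLN* and *MYL9*. Below are the 250 bases before the start of *ACTA2* at chr10:88952774-88953023 on the minus strand and of *CALD1* at chr7:134711249-134711498 on the plus strand, written 5′ to 3′. Capitals mark CArG boxes with 1 G or C in their core and the TEAD motif CATTCC or its reverse complement GGAATG, and all other bases are in lower case.

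ACTA2: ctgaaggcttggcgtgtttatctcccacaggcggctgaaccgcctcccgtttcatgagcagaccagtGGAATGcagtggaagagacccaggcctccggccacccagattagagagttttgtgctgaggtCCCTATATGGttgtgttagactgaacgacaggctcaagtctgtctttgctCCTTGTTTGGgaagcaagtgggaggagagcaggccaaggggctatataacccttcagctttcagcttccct

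CALD1: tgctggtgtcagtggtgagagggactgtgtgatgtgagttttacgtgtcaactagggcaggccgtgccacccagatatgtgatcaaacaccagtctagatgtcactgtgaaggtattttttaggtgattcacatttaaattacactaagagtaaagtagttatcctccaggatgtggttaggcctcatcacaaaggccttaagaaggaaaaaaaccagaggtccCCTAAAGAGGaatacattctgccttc

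In the *ACTA2* window, CArG-like elements began 121 and 71 bases before the start and a GGAATG element 183 bases before it. In the *CALD1* window, a CArG-like element began 26 bases before the start. The search covered both strands. A CArG box with 1 G or C in its core was held by 2 of the 14 member windows and by 6.94% of the 35116 windows of all genes. A CArG box with only A or T in its core was held by 0 of the 14 windows and 1.29% of all. CATTCC on either strand was held by 5 of the 14 windows, from 4 genes, and by 14% of all, and GGGCGG by 9 of the 14, from 8 genes, and by 45% of all. TATAAA on the sense strand was held by 1 of the 14 and by 7.33% of all. The printed *ACTA2* start lies inside the GENCODE 44 bounds of its gene, chr10:88935074-88991339, whereas the printed *CALD1* start lies outside those of *CALD1*, chr7:134744252-134970729. *CALD1* has 4 windows in the table and *ACTA2* has 2, and the gene-level values do not tell which start was used. A match describes the letters and is not evidence of binding.

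The tissue name of the gene set was checked against markers. Smooth muscle markers were mostly missing: of *MYH11*, *MYOCD*, *DES*, *LMOD1*, *ACTG2*, *SMTN* and *SYNPO2*, 2 of 7 reached 1 TPM in any library (*SMTN* and *SYNPO2*). *MYOCD*, which encodes the myocardin cofactor of SRF, was listed at 0 in every library, and *MYH11*, the smooth muscle myosin heavy chain, stayed at or under 0.559 TPM. The summed TPM of this marker list, most of it *SMTN*, lay between 23.4 and 38.5 in parental Panc1, 25.4 and 36.7 in Panc1 Holoclone, 25.5 and 55.2 in Panc1 Paraclone, 10.2 and 11.1 in parental Panc89, 10.7 and 23.1 in Panc89 Holoclone cells and 34.8 and 55.0 in the Panc89 Paraclone. All 6 pancreatic epithelial markers, keratins *KRT7*, *KRT8*, *KRT18* and *KRT19* with *EPCAM* and *CDH1*, reached 1 TPM in every group. The gene set thus names contractile genes, all of which reached 1 TPM in Panc1 and 6 of which did so in at least 3 of the Panc89 clone libraries, and 5 of the 7 smooth muscle markers stayed under 1 TPM in every library.

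Values are the deposited log2(TPM + 1) values turned back into TPM, which allow levels to be compared between genes per transcript length but keep no read counts. Depth per library is therefore unknown, and counting error could not be given. Fold changes and their standard errors (SE) are on the log2(TPM + 1) scale, which understates changes of genes near or under 1 TPM, and come from limma-trend fitted to all 16093 genes. A gene was called when its p-value, adjusted over all tested genes by Benjamini-Hochberg, was under 0.05. Since the genes were chosen with earlier results known, the p-values describe these libraries and are not independent support for the choice. Per library, the TPM added up to 985339 to 988066, between 12932 and 14199 genes per library reached 1 TPM, and Pearson correlations between libraries of a group lay between 0.954 and 0.992 across genes, which are not independent replicates.

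In Panc1, *CALD1*, *CNN1*, *MYL9* and *MYH10* were higher in Holoclone than in Paraclone cells and *ACTA2* was lower, while *TAGLN*, *CNN3*, *TPM1*, *TPM2* and *PPP1R14A* did not pass the test. In Panc89, *ACTA2* was higher and *TPM2* lower in Holoclone cells, and *TAGLN*, *CALD1*, *TPM1* and *MYH10* did not pass. The other 4 members, *CNN1*, *CNN3*, *MYL9* and *PPP1R14A*, did not reach 1 TPM in 3 of the 6 Panc89 clone libraries and entered the test through Panc1. At such levels the log2(TPM + 1) scale leaves little room for a change, and nothing is read from their values in Panc89. In Panc1, 5 of 10 genes were called beside 37.3% of all tested genes, with 4 higher beside 27.4% and 1 lower beside 9.97%. In Panc89, 2 of 10 were called beside 35.7% of all, with 1 higher beside 22.4% and 1 lower beside 13.3%. Of the 6 members that reached 1 TPM in at least 3 of the compared Panc89 libraries, 2 were called, beside 39.1% of all genes that did so. Of all called genes, 73.3% were higher in the Panc1 Holoclone, but 46.8% with median-of-ratios and 51.3% with upper quartile scaling of the TPM, and 62.8% in the Panc89 Holoclone, but 49.1% and 52.5%. The called members of Panc1 were 3 higher and 3 lower with the former and 3 and 2 with the latter scaling. Those of Panc89 were 0 higher and 1 lower with either. Nothing is read from these scaled counts. The median change of the 10 genes was 0.18 in Panc1 beside 0.19 over all genes, and 0.26 in Panc89 beside 0.09. The Panc89 median includes the 4 members under 1 TPM named above, so nothing is read from it. The test of the difference of the change between the lines was passed by *ACTA2*, *CALD1*, *TPM2* and *MYH10*, and by *CNN1*, for which it is not read as a difference because of its low Panc89 level. This test was passed by 35.1% of all genes. Libraries are bulk RNA, in which fewer cells with a transcript and less transcript per cell cannot be told apart.

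**Figure D1:**
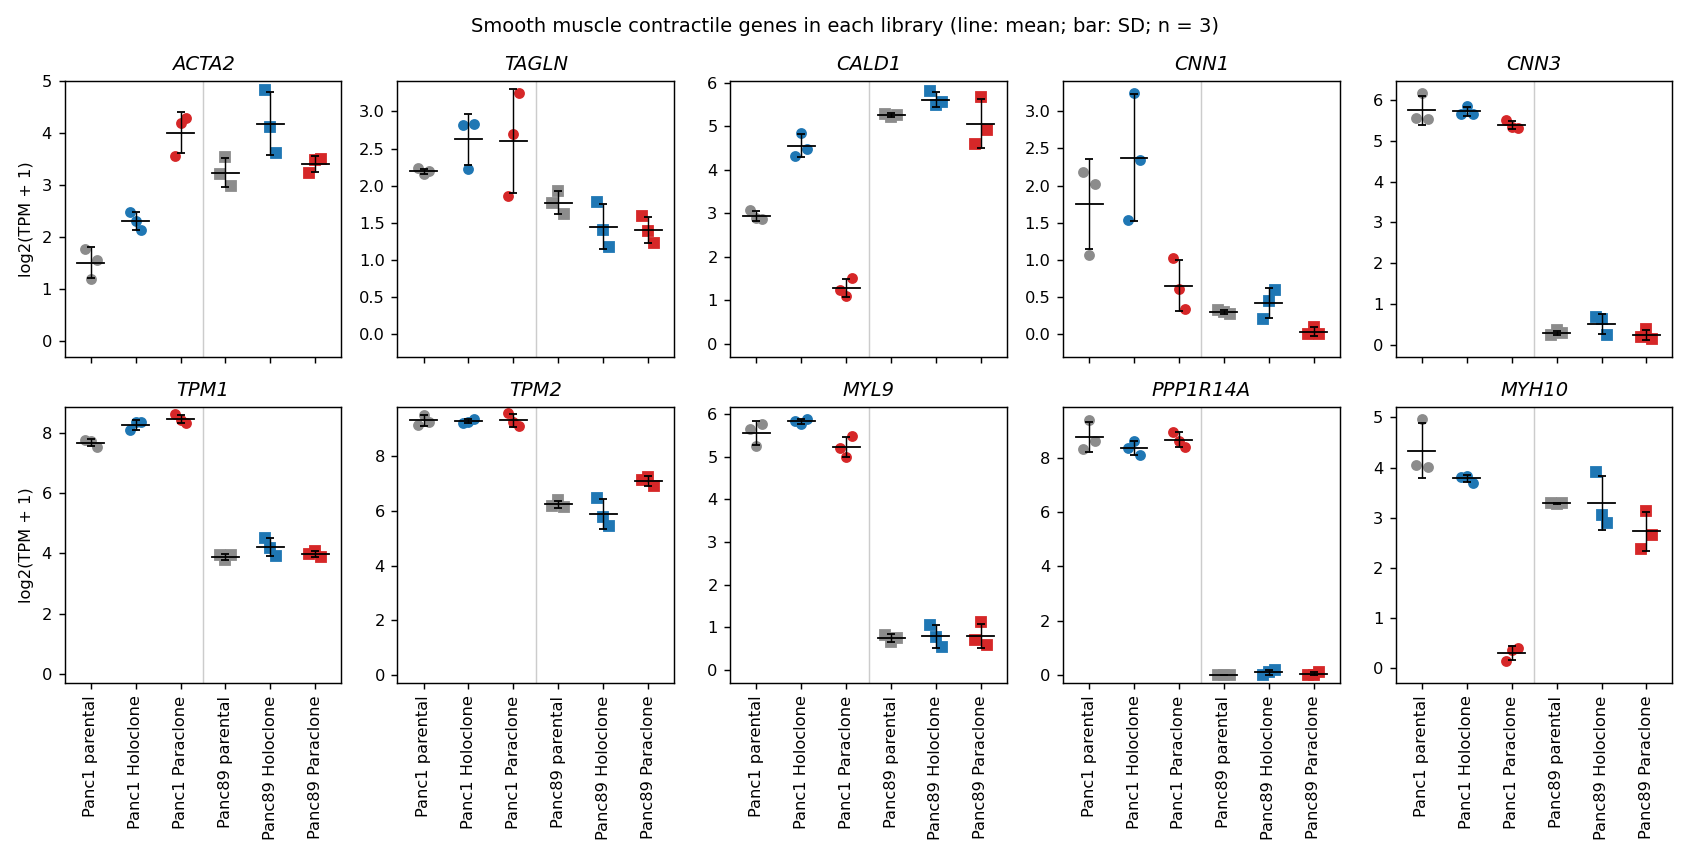
Level of each of the 10 genes in the 18 libraries on the log2(TPM + 1) scale (vertical axis, its range set for each gene), with circles for Panc1 and squares for Panc89, a horizontal line at the group mean and a bar for the SD of 3 libraries. *MYH10* and *CALD1* lie lowest in Panc1 Paraclone cells, and *ACTA2* is highest in Panc1 Paraclone and Panc89 Holoclone cells. The Panc89 group means of *CNN1*, *CNN3*, *MYL9* and *PPP1R14A* all lie under 1 on this scale.

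*ACTA2* (chr10:88935074-88991339, minus strand, GRCh38, GENCODE 44) was at 2.41, 1.28 and 1.96 TPM in parental Panc1, at 4.62, 3.94 and 3.41 in Panc1 Holoclone cells and at 10.7, 17.3 and 18.5 in the Panc1 Paraclone. The Panc1 groups did not overlap, with parental libraries lowest and Paraclone libraries highest. In Panc89 it was at 8.23, 10.6 and 6.95 TPM in parental, at 27.3, 16.3 and 11.2 in Holoclone and at 8.38, 10.2 and 10.3 in Paraclone cells. Panc89 Holoclone libraries all lay above the Paraclone libraries, with the replicate 1 library far above the other two, and parental and Paraclone libraries overlapped. Over the 6 groups, Panc89 Holoclone and Panc1 Paraclone cells had the highest means, 18.3 and 15.5 TPM, with overlapping libraries. The log2 fold change of Holoclone against Paraclone cells was −1.70 (SE 0.27, limma adjusted p = 0.000151) in Panc1, where the Paraclone mean was 3.89 times the Holoclone mean. In Panc89 it was 0.78 (SE 0.27, limma adjusted p = 0.0344), a Holoclone mean 1.90 times the Paraclone mean. Hence *ACTA2* changed in opposite directions in the clone pairs, and the difference of 2.48 between the lines passed the test (SE 0.382, limma adjusted p = 0.00013). The Panc89 part was the less stable: without Panc89 Holoclone replicate 1 its log2 fold change was 0.46 (limma adjusted p = 0.167). Its adjusted p in limma lay between 0.00643 and 0.167 over all alternatives. The Panc89 call was also lost with median-of-ratios and with upper quartile scaling, so it rested on the scaling. With no filter and in a fit of the compared groups alone it was lost as well. The gene overlaps *FAS* and *STAMBPL1* on the opposite strand, and whether the quantification used strand was not given in the sources used here. Its actin paralogs are closely similar in coding sequence, so the division of reads among them is uncertain. *ACTA1*, *ACTC1* and *ACTG2* stayed at or under 0.246 TPM. The abundant *ACTB* had group means from 2602 TPM (parental Panc89) to 4588 (Panc89 Paraclone). Those of *ACTG1* ran from 1338 TPM (Panc89 Holoclone) to 3030 (Panc1 Holoclone). Their part in the *ACTA2* values was not tested.

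The tropomyosins are next along the actin filament. *TPM2* (chr9:35681992-35690056, minus strand) was the most abundant member in every group. It was at 574, 738 and 613 TPM in parental Panc1, at 606, 613 and 667 in Panc1 Holoclone cells and at 774, 618 and 556 in the Panc1 Paraclone. These 3 groups overlapped, and the log2 fold change of Holoclone against Paraclone cells was −0.03 (limma adjusted p = 0.944). In Panc89, *TPM2* was at 72.5, 83.7 and 70.7 TPM in parental, at 89.1, 53.4 and 42.2 in Holoclone and at 141, 152 and 119 in Paraclone cells. Every Panc89 Paraclone library lay above every Holoclone and parental library. This was a log2 fold change of −1.21 (SE 0.207, limma adjusted p = 0.00031), a Paraclone mean 2.23 times the Holoclone mean, and it differed from that of Panc1 by −1.17 (SE 0.293, limma adjusted p = 0.00563). The smooth muscle marker *SMTN* had the direction of *TPM2*, with a Panc89 mean of 14.4 TPM in Holoclone and 41.9 in Paraclone cells. Of the 8 tested smooth muscle genes outside the set, 3 were higher and 2, *SMTN* among them, lower in the Panc89 Holoclone. Over all tested genes, 22.4% were higher and 13.3% lower there. The part of these smooth muscle genes in the *TPM2* result was not tested.

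*TPM1* (chr15:63042620-63071915, plus strand) was at 215, 211 and 186 TPM in parental Panc1, at 270.5, 327 and 331 in Panc1 Holoclone cells and at 391, 344 and 323 in the Panc1 Paraclone. Both clone groups lay above the parental libraries and overlapped each other. In Panc89, the 9 libraries lay between 12.7 and 21.6 TPM, the lowest parental and the highest Holoclone. The log2 fold change of Holoclone against Paraclone cells was −0.19 in Panc1 (limma adjusted p = 0.306) and 0.23 in Panc89 (limma adjusted p = 0.201). With TPM rescaled by median-of-ratios or upper quartile scaling, *TPM1* passed the test in Panc1, at −0.47 (limma adjusted p = 0.00398) and −0.44 (limma adjusted p = 0.00648).

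Of the proteins that bind the filament, caldesmon had the clearest clone difference. *CALD1* (chr7:134744252-134970729, plus strand) was at 7.37, 6.37 and 6.32 TPM in parental Panc1, at 19.0, 27.6 and 21.3 in Panc1 Holoclone cells and at 1.35, 1.13 and 1.87 in the Panc1 Paraclone. The 3 groups did not overlap, and the parental libraries lay between those of the clones. Between the clones, the log2 fold change was 3.26 (SE 0.217, limma adjusted p = 1.60e-08), with a Holoclone mean 15.6 times the Paraclone mean. In Panc89, *CALD1* was at 38.1, 36.2 and 37.3 TPM in parental, at 54.7, 43.7 and 45.7 in Holoclone and at 23.1, 50.0 and 29.1 in Paraclone cells. The Holoclone and Paraclone groups overlapped through Paraclone replicate 2. The log2 fold change of 0.55 did not pass (SE 0.217, limma adjusted p = 0.0591), and without that library it was 0.86 (limma adjusted p = 0.00102). The difference between the lines was −2.71 (SE 0.306, limma adjusted p = 6.48e-06).

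Calponin 1, the smooth muscle calponin, was low. *CNN1* (chr19:11538767-11550323, plus strand) was at 3.53, 1.09 and 3.07 TPM in parental Panc1, at 1.89, 8.45 and 4.10 in Panc1 Holoclone cells and at 1.03, 0.522 and 0.263 in the Panc1 Paraclone. Holoclone libraries lay above Paraclone libraries and overlapped the parental ones, with the highest Holoclone library at 4.46 times the lowest. For Holoclone against Paraclone cells, this was a log2 fold change of 1.72 (SE 0.345, limma adjusted p = 0.00104). In Panc89 no library exceeded 0.519 TPM, and 2 Paraclone libraries were listed at 0. The log2 fold change there was 0.38 (limma adjusted p = 0.426). The difference between the lines of −1.34 had an adjusted p of 0.0442 in limma (SE 0.488), and between 0.00518 and 0.413 in the alternatives. With Panc89 under 1 TPM throughout, this value is set largely by the added 1 TPM of the scale and is not read as a difference between the lines.

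*CNN3* (chr1:94896949-94927223, minus strand), the calponin of nonmuscle cells, was at 46.1, 70.8 and 45.6 TPM in parental Panc1, at 49.9, 56.5 and 49.6 in Panc1 Holoclone cells and at 44.7, 39.4 and 38.8 in the Panc1 Paraclone. No Panc89 library exceeded 0.601 TPM. Holoclone libraries lay above Paraclone libraries in Panc1 by a small margin, and the log2 fold change was 0.34 (SE 0.167, limma adjusted p = 0.132). The corresponding value of Panc89 was 0.28 (limma adjusted p = 0.216).

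*TAGLN* (chr11:117199370-117207464, plus strand), an early marker of smooth muscle differentiation, showed no clone difference beyond the spread of the libraries. It was at 3.70, 3.48 and 3.58 TPM in parental Panc1, at 6.04, 3.68 and 6.12 in Panc1 Holoclone cells and at 2.63, 5.50 and 8.50 in the Panc1 Paraclone. In Panc89 it was at 2.39, 2.82 and 2.07 TPM in parental, at 2.43, 1.64 and 1.25 in Holoclone and at 2.01, 1.61 and 1.35 in Paraclone cells. The Panc1 Paraclone libraries spanned the whole range of the other Panc1 groups. The log2 fold change was 0.02 in Panc1 (SE 0.275, limma adjusted p = 0.984) and 0.05 in Panc89 (SE 0.275, limma adjusted p = 0.923). *TAGLN* overlaps *PCSK7* on the opposite strand, and *SIDT2* ends 1925 bases before it on the same strand.

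Among the myosin genes, *MYH10* had the largest log2 fold change of the 10 members in the Panc1 clones. *MYH10* (chr17:8474207-8631376, minus strand) was at 15.5, 30.2 and 15.0 TPM in parental Panc1 and at 13.1, 13.3 and 12.0 in Panc1 Holoclone cells. In Panc1 Paraclone cells it was at 0.099, 0.289 and 0.311 TPM. All Panc1 Paraclone libraries thus lay far below all other libraries of the study. Between Holoclone and Paraclone cells, the log2 fold change was 3.49 (SE 0.273, limma adjusted p = 1.11e-07), and the Holoclone mean was 54.9 times the Paraclone mean. This ratio rests on a Paraclone mean of 0.233 TPM, so its size is uncertain. In Panc89, *MYH10* was at 8.76, 8.69 and 8.74 TPM in parental, at 13.9, 7.29 and 6.46 in Holoclone and at 4.19, 7.79 and 5.30 in Paraclone cells. Holoclone libraries overlapped both other groups, and all Paraclone libraries lay below the parental ones. The log2 fold change of Holoclone against Paraclone cells of 0.56 did not pass (SE 0.273, limma adjusted p = 0.126). The difference between the lines was −2.92 (SE 0.386, limma adjusted p = 3.04e-05). Its 3′ part overlaps *NDEL1* on the opposite strand.

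*MYL9* (chr20:36541497-36551447, plus strand) was at 49.3, 37.2 and 53.7 TPM in parental Panc1, at 55.9, 53.8 and 58.6 in Panc1 Holoclone cells and at 36.2, 31.1 and 43.6 in the Panc1 Paraclone. Holoclone libraries lay above all other Panc1 libraries. Compared with Paraclone cells, the log2 fold change was 0.60 (SE 0.18, limma adjusted p = 0.0158). With another scaling it was 0.32 (median-of-ratios, limma adjusted p = 0.182) or 0.36 (upper quartile, limma adjusted p = 0.148), so the call rested on the scaling. It was also lost without Panc1 Holoclone replicate 3 (limma adjusted p = 0.0537) and without Panc1 Paraclone replicate 2 (limma adjusted p = 0.083). In Panc89, *MYL9* lay between 0.453 and 1.17 TPM in the 9 libraries, and the log2 fold change was −0.02 (limma adjusted p = 0.969).

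*PPP1R14A* (chr19:38251237-38256532, minus strand) was at 317, 678 and 396 TPM in parental Panc1, at 332, 393 and 277 in Panc1 Holoclone cells and at 501, 396 and 341 in the Panc1 Paraclone. The Panc1 groups overlapped, and the log2 fold change of Holoclone against Paraclone cells was −0.30 (SE 0.217, limma adjusted p = 0.306). Of the 9 Panc89 libraries, 6 listed it at 0. The other 3 were Holoclone replicate 2 at 0.0728, Holoclone replicate 3 at 0.134 and Paraclone replicate 3 at 0.0834 TPM. The gene overlaps *SPINT2*, a serine protease inhibitor gene, on the opposite strand.

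**Figure D2:**
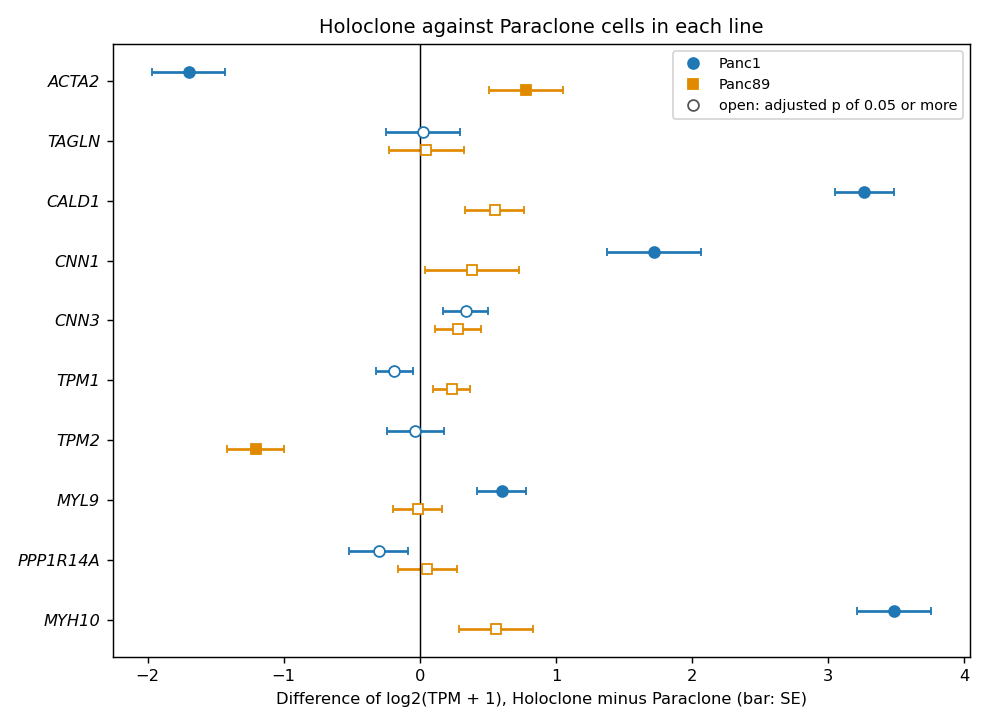
Difference of log2(TPM + 1) between Holoclone and Paraclone cells (horizontal axis, positive where Holoclone cells are higher) for the 10 genes, with circles for Panc1, squares for Panc89, bars for the SE and open symbols where the adjusted p is 0.05 or more. *CALD1* and *MYH10* lie above 3 in Panc1 and under 1 in Panc89, and *ACTA2* lies on opposite sides of 0.

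The summed TPM of the fibroblast markers was higher in Panc1 Holoclone than in Paraclone cells, the direction of *CALD1* and *MYH10* there. This list includes *COL1A1*, which encodes a collagen chain. Of the 8 fibroblast markers, 4 reached 1 TPM in any library and 0 were at 0 in all libraries. Their summed TPM lay between 16.5 and 23.4 in the Holoclone of Panc1 and between 7.58 and 10.8 in its Paraclone, most of it *COL1A1* and *THY1*. *DCN*, a defining marker of fibroblasts, was at 0.145 TPM or less in every library. In the other groups, the sum lay between 23.4 and 26.3 in parental Panc1, 20.6 and 27.4 in parental Panc89, 10.2 and 21.8 in Panc89 Holoclone cells and 23.8 and 26.1 in the Panc89 Paraclone. The part of these genes in the result was not tested. Pericyte markers, of which 3 of 4 reached 1 TPM and 0 were at 0 in all libraries, summed to between 23.5 and 28.5 TPM in the Holoclone of Panc89 and between 45.0 and 68.7 in its Paraclone, most of it *NOTCH3*, with 18.3 TPM in Holoclone and 52.4 in Paraclone cells. *NOTCH3* had the direction of *TPM2*, whereas *RGS5* had the opposite one, with 7.17 and 4.39 TPM. Their part in the *TPM2* result was not tested. Their sums were 46.8 to 52.0 TPM in parental Panc89, 9.14 to 11.6 in parental Panc1, 10.6 to 13.6 in the Panc1 Holoclone and 9.15 to 13.2 in the Panc1 Paraclone. Striated muscle markers (0 of 7) and the leukocyte marker *PTPRC* did not reach 1 TPM in any library. Of the 3 endothelial markers, 2 reached 1 TPM in any library. Their summed TPM lay between 55.2 and 69.1 in parental Panc89, 1.01 and 2.16 in its Holoclone and 2.95 and 8.90 in its Paraclone. In the Panc1 groups the sum was at or under 0.273 TPM. Of these markers, *PECAM1* averaged 60.1 TPM in parental Panc89, 0.856 in Panc89 Holoclone cells and 4.54 in the Panc89 Paraclone.

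Each clone was also compared with the parental cells of its line. The Holoclone and Paraclone comparisons of a line share its parental libraries, so their values are set side by side only. In Panc1 Holoclone cells, 2 of 10 genes were called beside 10.9% of all tested genes. *CALD1* was higher than in parental cells by 1.61 (SE 0.217, limma adjusted p = 0.000148) and *TPM1* by 0.60 (SE 0.136, limma adjusted p = 0.00924). In Panc1 Paraclone cells, 5 of 10 were called beside 28.6% of all, of which 25.6% were higher, but 55.2% with median-of-ratios and 47.4% with upper quartile scaling. *ACTA2* was higher by 2.50 (SE 0.27, limma adjusted p = 5.70e-06) and *TPM1* by 0.78 (SE 0.136, limma adjusted p = 0.000548). *MYH10* fell by 4.04 (SE 0.273, limma adjusted p = 2.89e-08), with a parental mean 86.9 times the Paraclone mean. The size of this ratio is uncertain, since the Paraclone mean was 0.233 TPM. *CALD1* fell by 1.66 (SE 0.217, limma adjusted p = 4.25e-05) and *CNN1* by 1.10 (SE 0.345, limma adjusted p = 0.0257). The *CNN1* call was lost in 7 of 12 alternatives (limma adjusted p up to 0.113), among them median-of-ratios scaling (limma adjusted p = 0.0539) and leaving out parental replicate 1 or 3 or Paraclone replicate 2 or 3. Those of *ACTA2*, *TPM1*, *MYH10* and *CALD1* in the Paraclone held in all 13. The *TPM1* call in the Holoclone was lost without Holoclone replicate 3 (limma adjusted p = 0.0522), and *TAGLN* was called in the Paraclone without Paraclone replicate 1, at 0.78 (limma adjusted p = 0.0214). Parental Panc1 values of *CALD1* thus lay between those of its clones, whereas those of *ACTA2* and *TPM1* lay below both.

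In Panc89, 1 of 10 genes was called in each clone against parental cells, beside 24.7% of all tested genes for Holoclone and 19.4% for Paraclone cells. Of the former, 65.2% were higher in Holoclone cells, but 51.1% and 51.3% with these scalings. *ACTA2* was higher in Holoclone cells by 0.94 (SE 0.27, limma adjusted p = 0.0185) and *TPM2* in Paraclone cells by 0.85 (SE 0.207, limma adjusted p = 0.00866). The *ACTA2* call was lost in 4 of 13 alternatives, in a fit of the compared groups alone (limma adjusted p = 0.108) and without parental replicate 1 (0.055), parental replicate 3 (0.08) or Holoclone replicate 1 (0.0777), and that of *TPM2* held in all 13. The remaining members of Panc89 had log2 fold changes against parental cells between −0.56 and 0.36.

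**Figure D3:**
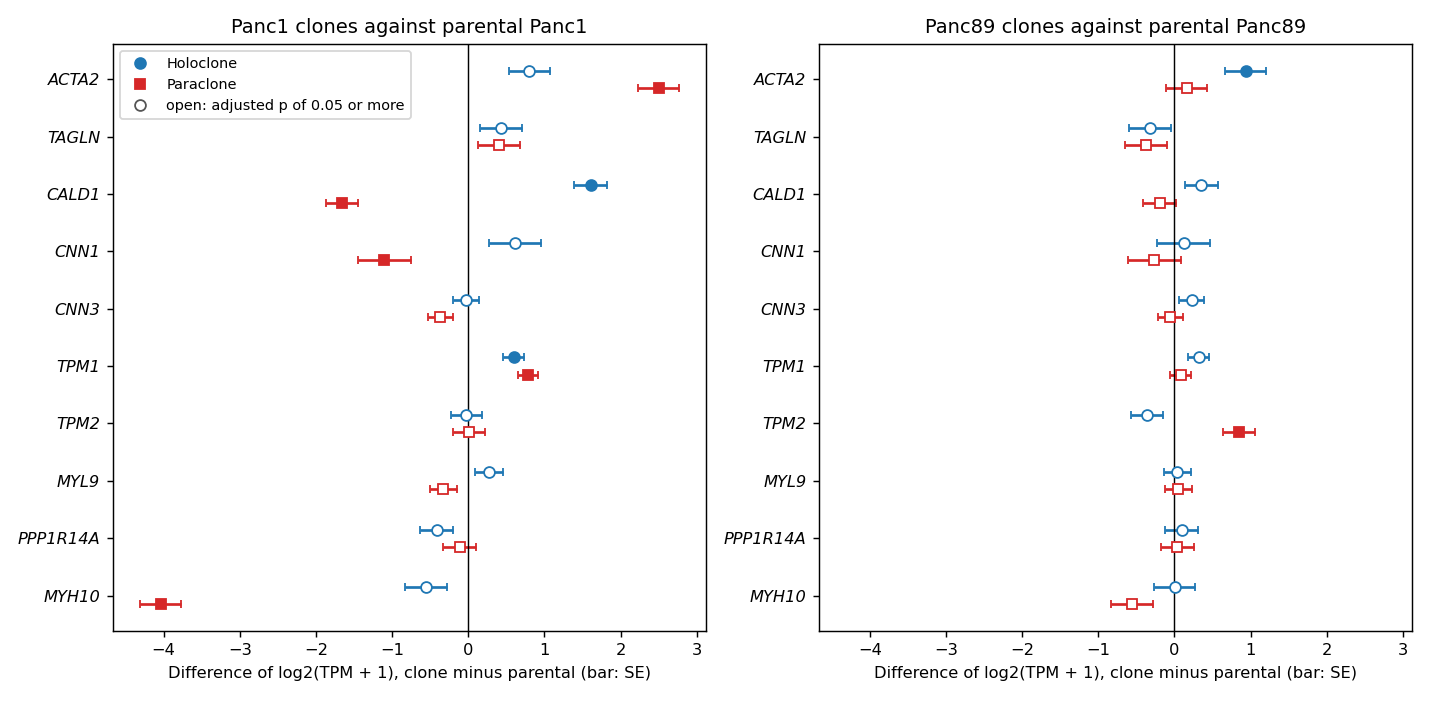
Difference of log2(TPM + 1) between each clone and the parental cells of its line (horizontal axis) for the 10 genes, Panc1 left and Panc89 right, with circles for Holoclone and squares for Paraclone cells, bars for the SE and open symbols where the adjusted p is 0.05 or more. *MYH10* at −4.04 and *ACTA2* at 2.50 in Panc1 Paraclone cells lie farthest from 0.

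Between the lines, most members were lower in Panc89, which is given as a description since the genes were chosen with such a difference known. The sum of the 10 genes averaged 1445 ± 291 TPM (SD, n = 3) in parental Panc1, 1429.6 ± 71.1 in its Holoclone and 1516 ± 222 in its Paraclone. In Panc89 it averaged 148 ± 7.49 TPM in parental, 158 ± 46.6 in Holoclone and 204 ± 31.3 in Paraclone cells. *TPM2* and *PPP1R14A* made up 67.3% to 76.5% of the sum in the Panc1 groups, and *TPM2* and *CALD1* 69.3% to 84.0% in the Panc89 groups. The log2 difference of parental Panc89 minus parental Panc1 cells was −5.47 for *CNN3*, −4.81 for *MYL9*, −3.79 for *TPM1*, −3.06 for *TPM2*, −1.46 for *CNN1*, −1.05 for *MYH10* and −0.43 for *TAGLN*. It was 2.31 for *CALD1* and 1.73 for *ACTA2*, the members that were higher in parental Panc89. No difference is given for *PPP1R14A*, since it was listed at 0 in parental Panc89. *CNN1*, *CNN3* and *MYL9* averaged 0.23, 0.221 and 0.685 TPM there, so the added 1 TPM understates their differences. By mean TPM, parental Panc1 was at 11.1 times parental Panc89 for *CNN1* and at 8.48 times for *TPM2*.

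Libraries of the lines did not overlap for 10 of 10 genes in parental cells beside 73.3% of all tested genes, for 9 of 10 in Holoclone cells beside 69.0% and for 10 of 10 in Paraclone cells beside 64.0%. Nothing is read from these counts. *MYH10* was the exception in Holoclone cells, with 12.0 to 13.3 TPM in Panc1 and 6.46 to 13.9 in Panc89. In Paraclone cells its order was turned, with a Panc89 mean of 5.76 TPM and a Panc1 mean of 0.233. The order of *ACTA2* was turned as well, with 15.5 TPM in Panc1 and 9.62 in Panc89 Paraclone cells.

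Each member was set beside its gene family as shares of the summed TPM. Nonmuscle myosin IIA, from *MYH9*, was the main heavy chain everywhere. The share of *MYH10* among *MYH9*, *MYH10* and *MYH14* was 6.37% in parental Panc1, 5.17% in its Holoclone and 0.0526% in its Paraclone. In Panc89 it was 4.29% in parental, 2.85% in Holoclone and 2.05% in Paraclone cells, where *MYH14*, the IIC heavy chain, took 32.0%, 8.46% and 29.5%. *TPM1* and *TPM2* held 12.7% and 39.7% of the tropomyosin TPM in parental Panc1 and 1.96% and 10.7% in parental Panc89, in which *TPM3* held 56.8% and *TPM4* 30.5%. *CNN2*, a calponin of nonmuscle cells, held 68.4% to 83.3% of the calponin TPM in the Panc1 groups and 99.8% to 99.9% in the Panc89 groups. *PPP1R14A* held 75.1%, 66.2% and 70.7% of the TPM of the PPP1R14 inhibitors in parental, Holoclone and Paraclone Panc1 cells, and *PPP1R14B* held 98.9% to 99.9% in the Panc89 groups. *MYL9* held 3.21% to 4.16% of the regulatory light chains with *MYL12A* and *MYL12B* in the Panc1 groups, and *TAGLN* 1.01% to 1.61% of the transgelins, which were mostly *TAGLN2*.

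**Figure D4:**
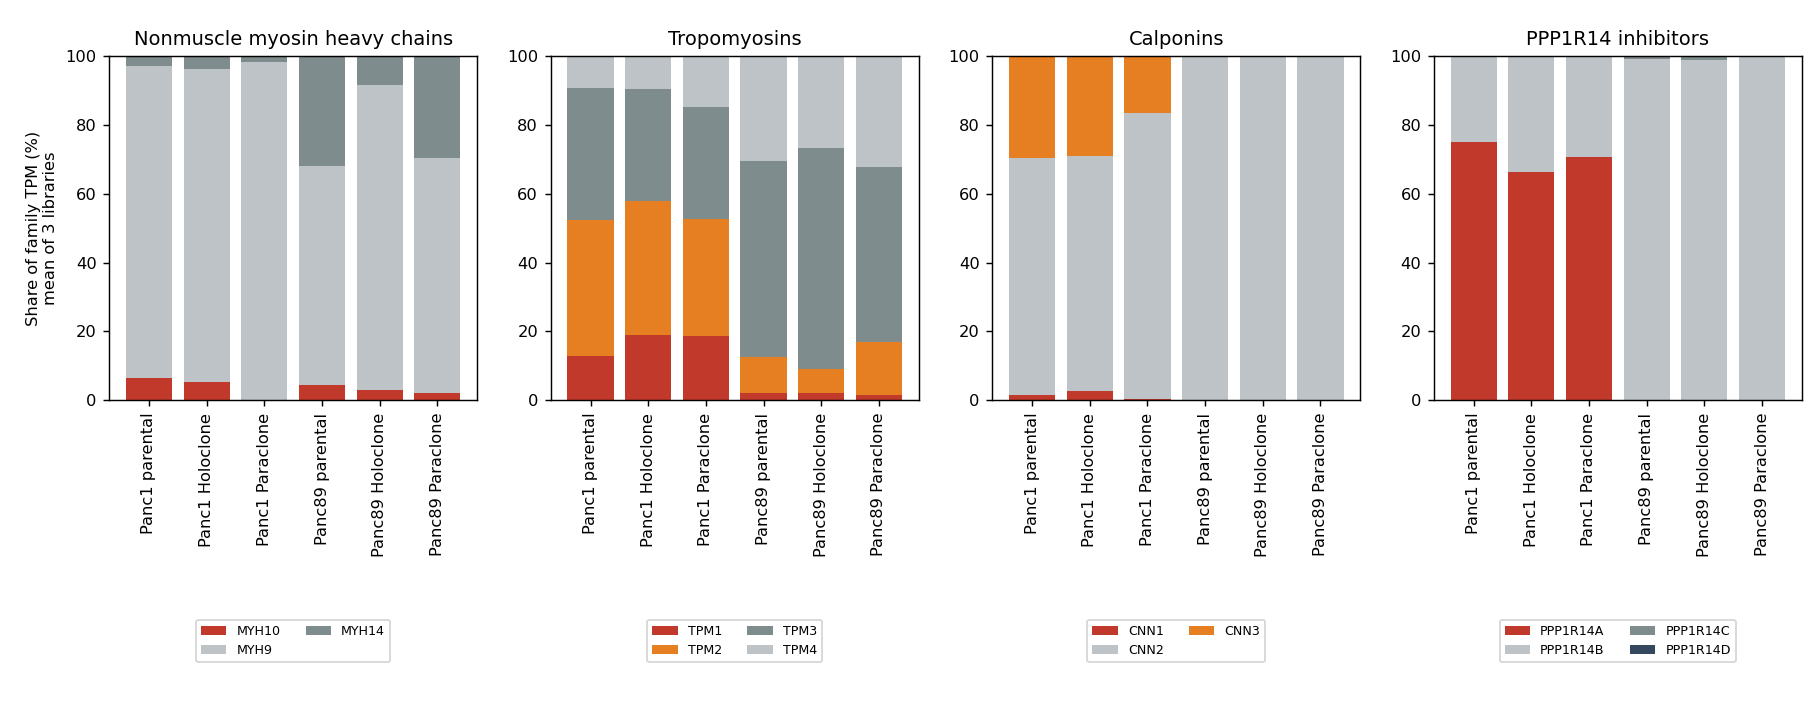
Share of the summed TPM of a gene family (vertical axis, percent, mean of 3 libraries) held by each gene in the 6 groups, with member genes in red or orange and other genes in grey or blue. *PPP1R14A* holds 66.2% to 75.1% in the Panc1 groups and almost nothing in Panc89, and *MYH10* is at 0.0526% in Panc1 Paraclone cells.

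The transcription factors known to act on these genes were taken from a list written for this purpose. Of all tested genes, 27.4% were higher and 9.97% lower in the Panc1 Holoclone, and 22.4% and 13.3% in the Panc89 Holoclone. The counts of this and the following lists stand beside these shares, and nothing is read from them. Of 10 regulators 9 were tested, and *MYOCD* was listed at 0. In Panc1, 4 were higher and 2 lower in Holoclone cells, and with median-of-ratios scaling 1 was higher and 2 lower. *SRF* was at 53.2 ± 4.77 TPM (SD, n = 3) in the Panc1 Holoclone and 34.9 ± 3.73 in the Panc1 Paraclone, a log2 fold change of 0.59 (limma adjusted p = 0.00568), which was not called with median-of-ratios scaling (limma adjusted p = 0.0721). In Panc89 *SRF* was at 38.9 ± 6.52 and 25.0 ± 5.23 TPM, a change of 0.63 (limma adjusted p = 0.00422). That call was lost in a fit of the compared groups alone (limma adjusted p = 0.0713). *ACTA2* was lower in the Panc1 Holoclone and higher in the Panc89 Holoclone, the latter a call lost with either scaling. The part of *SRF* in the *ACTA2* values was not tested. Of the SRF cofactors, *MRTFA* did not pass in either line (0.35 in Panc1, limma adjusted p = 0.145, and −0.27 in Panc89, limma adjusted p = 0.269). *MRTFB* did not pass in Panc1 (0.10, limma adjusted p = 0.664) and was higher in the Panc89 Holoclone by 0.87 (limma adjusted p = 0.000243).

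In Panc89, 4 regulators were higher and 1 lower in Holoclone cells under each scaling. *KLF4*, a zinc finger factor that can repress smooth muscle genes, changed in opposite directions, by −1.77 in Panc1 (limma adjusted p = 0.000601) and by 1.87 in Panc89 (limma adjusted p = 0.000415). *GATA6* did so too, with −2.80 in Panc1 (limma adjusted p = 4.38e-09) and 0.78 in Panc89 (limma adjusted p = 0.00181). In Panc1 this was the direction of *ACTA2* and the opposite of *CALD1* and *MYH10*. *TEAD1*, which encodes a factor that binds CATTCC, was higher in the Panc1 Holoclone by 1.28 (limma adjusted p = 3.94e-05), and *ELK3* was lower in the Panc89 Holoclone by 1.25, a log2 fold change of −1.25 (limma adjusted p = 0.000995).

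Of 15 other smooth muscle genes, 8 were tested, since 7 including *MYH11*, *DES* and *ACTG2* were too low. In Panc1, 3 were higher and 1 lower in Holoclone cells, and in Panc89 3 were higher and 2 lower, with the same counts under each scaling. *PDLIM3*, which encodes an actinin-associated protein, was higher by 1.54 in Panc1 (limma adjusted p = 4.01e-07), at 1.97 against 0.0144 TPM, and by 1.65 in Panc89 (limma adjusted p = 1.98e-07), at 2.64 against 0.148 TPM. *MYLK*, the kinase of the regulatory light chain, was higher by 1.22 in Panc1 (limma adjusted p = 2.33e-05), at 2.24 against 0.397 TPM. In Panc89 *MYLK* differed by −0.02 (limma adjusted p = 0.938), at 0.234 against 0.245 TPM, from which nothing is read. *FHL1*, a LIM domain gene, was lower by a log2 fold change of −2.73 in Panc1 (limma adjusted p = 1.19e-06) and higher by 2.12 in Panc89 (limma adjusted p = 1.70e-05), the directions of *ACTA2*. *TGFB1I1* was higher in the Holoclone of either line, by 0.87 in Panc1 (limma adjusted p = 0.000143) and by 1.82 in Panc89 (limma adjusted p = 7.89e-08). In Panc89, *SMTN* and *SYNM* had log2 fold changes of −1.52 (limma adjusted p = 0.00104) and −1.38 (limma adjusted p = 0.000182).

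Of 15 genes that control light chain phosphorylation, 14 were tested. In Panc1, 5 were higher and 1 lower, but 2 and 2 with median-of-ratios scaling, and in Panc89 3 were higher and 2 lower. The highest in Panc1 were *MYLK* and *PRKG1*, which encodes a cGMP-dependent kinase, with 0.89 (limma adjusted p = 0.000196). *PRKG1*, which is among these 5, averaged 0.924 TPM in the Panc1 Holoclone and 0.0397 in the Panc1 Paraclone. At such levels nothing is read from its change. The lowest was *RHOC*, a small GTPase, with −0.94 (limma adjusted p = 9.35e-06). In Panc89 the highest were *PPP1R14C* with 2.38 (limma adjusted p = 2.99e-08) and *PPP1R14B* with 0.71 (limma adjusted p = 0.00438), relatives of *PPP1R14A*. The lowest there were *ROCK2* with −0.52 (limma adjusted p = 0.00501) and *RHOA* with −0.34 (limma adjusted p = 0.0173). The *RHOA* call held in 9 of 13 alternatives (limma adjusted p up to 0.0963).

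Of 18 paralogs and general actomyosin genes, 17 were tested. In Panc1, 4 were higher and 6 lower in Holoclone cells, and 1 and 7 with median-of-ratios scaling. *PALLD*, which encodes the actin crosslinker palladin, was higher by 2.04 (limma adjusted p = 4.87e-06) and *MYL6*, the essential light chain, by 0.71 (limma adjusted p = 0.0182), a call that both scalings removed. *ACTN4* and *MYH9* had log2 fold changes of −1.05 (limma adjusted p = 0.000331) and −0.95 (limma adjusted p = 7.18e-05). *MYH9* was thus lower in the Panc1 Holoclone, where *MYH10* was higher. In Panc89, 2 were higher and 6 lower, and 0 and 10 with median-of-ratios scaling, led by *MYH14* with −1.61 (limma adjusted p = 4.71e-05) and *MYL6* with −1.15 (limma adjusted p = 0.000757). *CNN2* with 0.61 (limma adjusted p = 0.0296) and *MYH9* with 0.52 (limma adjusted p = 0.00837) were the higher ones. The *CNN2* call in Panc89 held in 7 of 13 alternatives (limma adjusted p up to 0.107). *ACTN4* was lower in the Panc89 Holoclone too, with −0.82 (limma adjusted p = 0.00234), and *CNN2* was lower in the Panc1 Holoclone, with −0.74 (limma adjusted p = 0.00922).

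Genes with the most similar pattern were sought for 5 members among 8865 tested genes whose values varied by at least 0.5 on the log2(TPM + 1) scale, as the root mean square deviation from their mean over 18 libraries. Likeness was the root mean square difference of these deviations over the 18 libraries, which share 2 lines and 6 groups. For *TAGLN* the most similar were its neighbour *SIDT2* (0.25), *DNAI4* (0.27) and *CEP68* (0.28). For *ACTA2* they were *TNIK* (0.42), *ARHGAP23* (0.47) and *EFNB1* (0.49), and for *CNN1* *CYP20A1* (0.28), *LINC00899* (0.29) and *MAPK8* (0.30). For *MYL9* they were *C8orf88* (0.22), *ZNF677* (0.23) and *TRIM4* (0.23), and for *PPP1R14A* *LXN* (0.74), *PLAC8* (0.85) and *FBXO17* (0.93).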

How the data were processed

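RNA from 3 passages of each cell variant was sequenced by the authors from stranded mRNA libraries as paired-end reads. Per the labels and the methods of the study, the authors quantified transcripts with kallisto 0.46.1 against Ensembl 106 (GRCh38) and summarised them to genes with tximport. The deposited log2 values are log2(TPM + 1), made by the authors, with a value for each gene symbol and library. They hold no counts, so the authors' DESeq2 design could not be refitted.

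Differences were computed with limma 3.58.1 (lmFit, eBayes with trend) in R 4.3.3 in a model with 1 coefficient per group. Genes entered where 3 or more libraries reached 1 TPM, which left 16093. P-values are two-sided and adjusted by Benjamini-Hochberg over all of these genes. No column lacked a sample, and 0 pairs of libraries were identical. Positions are from GENCODE 44, and promoter sequences from RefSeq on GRCh38.p14. The test was tried first on simulated data.

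Members, lists and tests were chosen with earlier results of these data known. All 10 members are named. Of each list, the 2 highest and 2 lowest genes past the threshold in each clone comparison are named, with *SRF*, *MRTFA*, *MRTFB*, *MYOCD* and *MYLK* in any case. Marker genes are named for the check of the tissue, and *SMTN*, *COL1A1*, *THY1*, *DCN* and *PECAM1* after their values were seen. Libraries of a line with the same replicate number had correlations of their deviations from −0.318 to 0.190 over 18 pairs, so they were not treated as pairs. Alternatives were a pseudocount of 0.1, no filter and a filter of 5 TPM, a fit of the compared groups alone, the replicate block, median-of-ratios and upper quartile scaling, and leaving out each library.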

Additional observations from a re-analysis of the deposited data

Results flagged for a closer look

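In limma's test of the difference itself, the Holoclone against Paraclone change of 5 of the 10 genes passed between Panc1 and Panc89, beside 35.1% of all genes tested. Differences are Panc89 minus Panc1 on the log2(TPM + 1) scale. *ACTA2* was lower in the Panc1 Holoclone and higher in the Panc89 Holoclone, the latter a call lost with either scaling. The difference was 2.48 for *ACTA2* (SE 0.382, limma adjusted p = 0.00013). It was −2.71 for *CALD1* (SE 0.306, limma adjusted p = 6.48e-06) and −2.92 for *MYH10* (SE 0.386, limma adjusted p = 3.04e-05), both higher in the Panc1 Holoclone and not called in Panc89. It was −1.17 for *TPM2* (SE 0.293, limma adjusted p = 0.00563), which was called in Panc89 alone. It was −1.34 for *CNN1* (SE 0.488, limma adjusted p = 0.0442), which lost the call in 16 of 18 alternatives. *CNN1* stayed at or under 0.519 TPM in every Panc89 library and entered the test through Panc1, so its value is set largely by the scale and is not read as a difference between the lines. The ratio of mean TPM was 7.96 in Panc1 and 13.8 in Panc89, the latter over a Paraclone group with 2 libraries listed at 0. No explanation was tested.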

How the results depend on the processing

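The calls of *ACTA2*, *CALD1*, *CNN1* and *MYH10* in Panc1 and of *TPM2* in Panc89 held in every alternative that gave a value, as did the between-line differences of *ACTA2*, *CALD1*, *TPM2* and *MYH10*. *MYL9* in Panc1, *ACTA2* in Panc89 and the between-line difference of *CNN1* lost their calls in some alternatives, as did *CNN1* in Panc1 Paraclone and *ACTA2* in Panc89 Holoclone against parental cells. The cause was not tested. Rescaling moved the median of all genes in Panc1 Holoclone against Paraclone cells from 0.19 to 0.00 (median-of-ratios) and 0.01 (upper quartile), and in parental Panc89 against parental Panc1 cells from −0.18 to 0.01 and −0.04. In Panc1 Paraclone against parental cells it moved from −0.17 to 0.00 and −0.02. Nothing is read from a call of *CNN1* or *CNN3* in Panc89, where both stayed under 1 TPM and entered the test through Panc1. Some members gained a call. These were *PPP1R14A* in Panc1 with median-of-ratios scaling (limma adjusted p = 0.0468), *CNN3* in Panc1 in a fit of the compared groups alone (limma adjusted p = 0.0341), *CNN1* and *CNN3* in Panc89 with a pseudocount of 0.1 (limma adjusted p = 0.0218 and 0.0413), *MYH10* in Panc89 without Paraclone replicate 2 (0.77, limma adjusted p = 0.0453) and *TPM1* in Panc89 without Holoclone replicate 3 (limma adjusted p = 0.0429). The between-line difference of *TPM1* was called with either scaling (0.58 and 0.57, limma adjusted p = 0.01 and 0.0102) and without Panc89 Holoclone replicate 3 (0.57, limma adjusted p = 0.0241), and that of *MYL9* without Panc1 Paraclone replicate 3 (−0.74, limma adjusted p = 0.0462) or Panc89 Holoclone replicate 1 (−0.75, limma adjusted p = 0.0302).

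With median-of-ratios scaling, the median change of the 10 genes was −0.080 in Panc1 and −2.08 between the parental lines, *TAGLN* was at −0.22 in Panc1 and −0.046 in Panc89, and the between-line difference of *CNN3* at 0.20. With upper quartile scaling, the Panc1 median was −0.048, *TAGLN* was at −0.19 in Panc1 and −0.023 in Panc89, and *CNN3* at 0.17. With a pseudocount of 0.1, 4 members were called in Panc89, among them *CNN1* and *CNN3* at under 1 TPM, and nothing is read from that count. With this pseudocount, *CNN3* was at 0.56 between the lines, from which nothing is read either, and the parental median was −2.97. With a filter of 5 TPM, the between-line median was −0.057 and the parental median −3.06, because fewer members were tested. In Panc89, 1 member was called with no filter, with either scaling and in a fit of the compared groups alone. That fit called 3377 genes in Panc89 Holoclone against Paraclone cells, 0 members in Panc89 Holoclone and 2 in Panc89 Paraclone against parental cells.

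Leaving out each library gave 1 to 4 called members in Panc89 Holoclone against Paraclone cells (4 without Paraclone replicate 2), 1 to 2 in Panc1 Holoclone against parental cells (1 without Holoclone replicate 3, with 1061 to 1571 genes over all), 0 to 2 in Panc89 Holoclone against parental cells (0 without parental replicate 1 or 3, 2 without Holoclone replicate 3) and 1 to 2 in Panc89 Paraclone against parental cells (2 without Paraclone replicate 2). It turned the sign of values that were not called. *TAGLN* lay between −0.35 and 0.34 in Panc1, −0.12 and 0.19 in Panc89 and −0.30 and 0.40 between the lines. *TPM2* in Panc1 lay between −0.14 and 0.10, *MYL9* in Panc89 between −0.15 and 0.14, and *CNN3* between the lines between −0.14 and 0.086.

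With the replicate block, 5 members were called in Panc1 and 2 in Panc89, and 5919 and 5661 of all genes. Only the between-line difference of *CNN1* lost its call among the members (limma adjusted p = 0.0633). The numbers do not pair the libraries.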
